A study of Mus musculus with 4 samples.

Results

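The proteasome genes described here are the protein-coding rows of the deposited gene table whose symbol begins with Psm, a letter from a to g, and a number. This rule took 50 of the 54532 genes in the table, of which 22046 are protein coding. They were measured by RNA-seq in mouse naive CD4+ T cells from the spleen that had been cultured for 3 days with signals that drive T follicular helper (Tfh) fate, that of the helper T cells that support antibody responses. All libraries were labelled wild type (WT), and the 2 groups were cultures without treatment (control) and cultures with dimethyl fumarate (DMF), a fumaric acid ester known as an activator of the transcription factor Nrf2, with 2 libraries each. The labels give no DMF dose, age or sex and do not say whether the libraries of a group came from separate cultures or animals, so each p-value reflects spread among these libraries alone, and that spread may be technical.

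The 26S proteasome degrades proteins tagged with ubiquitin. Its 20S core is a barrel of alpha and beta rings in which 3 beta subunits, encoded by Psmb5, Psmb6 and Psmb7, cut peptide bonds, and its 19S cap recognises, unfolds and feeds in substrates. Under interferon, and in lymphocytes, newly made cores can take up Psmb8, Psmb9 and Psmb10 in place of these 3 subunits, which gives the immunoproteasome, known for shaping the peptides shown on MHC class I. Psme1 and Psme2 encode the interferon-inducible 11S activator, a ring that opens the core. These 5 genes form the inducible set below, and the other 45 genes the constitutive set.

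Levels are FPKM, fragments per kilobase of gene scaled by a library size set by the authors. Library totals lay between 15900118 and 17516953 reads, as worked out from FPKM and gene length. Of the 50 genes, 48 passed a filter of a mean FPKM of at least 1, as did 12166 genes in all. limma called 0 of the 12166 genes at an adjusted p under 0.05 (0.0% of genes), and voom on the reads called 0 as well. At an unadjusted p under 0.05, 382 genes (3.14%) were higher and 768 (6.31%) lower in DMF. Control replicate 2 stood apart: log2 differences over the tested genes had an SD of 0.74 from control to control, against 0.32 from one DMF library to the other. Over all tested genes, both DMF libraries lay above both controls in 26.4% and below both in 26.8%, the background for such counts on this scale. The 6 CD4 T cell markers summed to 1093 and 1411 FPKM in the controls and to 1061 and 1069 FPKM in the DMF libraries, with 4 of 6 below both controls and 0 above. Among them Cd3d and Cd3g, named after their values were seen, had log2 differences of -0.93 and -0.85, in the range of the inducible genes below. These were the lowest of the 6, whose median was -0.18 and whose highest value was 0.28. The 7 B cell markers summed to 11.2 and 14.4 FPKM in the controls against 26.03 and 24.98 FPKM with DMF, with 5 of 6 tested markers above both controls. Summed levels of the 6 CD8 T or NK cell markers were 12.2 and 20.7 FPKM in the controls against 2.61 and 2.55 FPKM with DMF, with 3 of 3 tested markers below both controls and Ncr1 and Klrb1c at 0 in every library. The 7 myeloid markers summed to 9.61 and 14.8 FPKM against 9.49 and 7.57 FPKM, with 1 of 4 tested markers above and 2 below both controls, and the 5 dendritic cell markers to at most 0.785 FPKM. The part of such cells in the results was not tested. In bulk libraries fewer cells of a type and less RNA per cell cannot be told apart.

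For all 5 inducible genes both DMF libraries lay below both controls, while most constitutive genes in the DMF libraries lay close to control replicate 1. The 5 inducible genes had a median log2 difference (DMF minus control, on log2(FPKM + 1)) of -0.82, the 43 tested constitutive genes of -0.31, and all 12166 tested genes of -0.01. Against control replicate 1 alone the medians were -0.32, 0.017 and 0.014, and against control replicate 2 alone they were -1.38, -0.70 and -0.05. Both DMF libraries lay below both controls in 12 of the 43 constitutive genes, where 26.8% of all tested genes did, and above both in 2 of the 43, where 26.4% of all tested genes did. The share of constitutive genes was close to the background in the lower direction and under it in the upper direction. The constitutive split depended on scaling: under quantile normalization 9 of 43 lay above and 6 below both controls, and with voom 5 and 6. No share over all tested genes was worked out under those 2 scalings, so these counts have no background. No member passed limma's adjusted test, with adjusted p between 0.501 and 0.984. At an unadjusted limma p under 0.05, 1 of 48 members, Psmb8, was lower, where 6.31% of all tested genes were. At that threshold 0 of 48 members were higher, where 3.14% of all tested genes were.

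**Figure D1:**
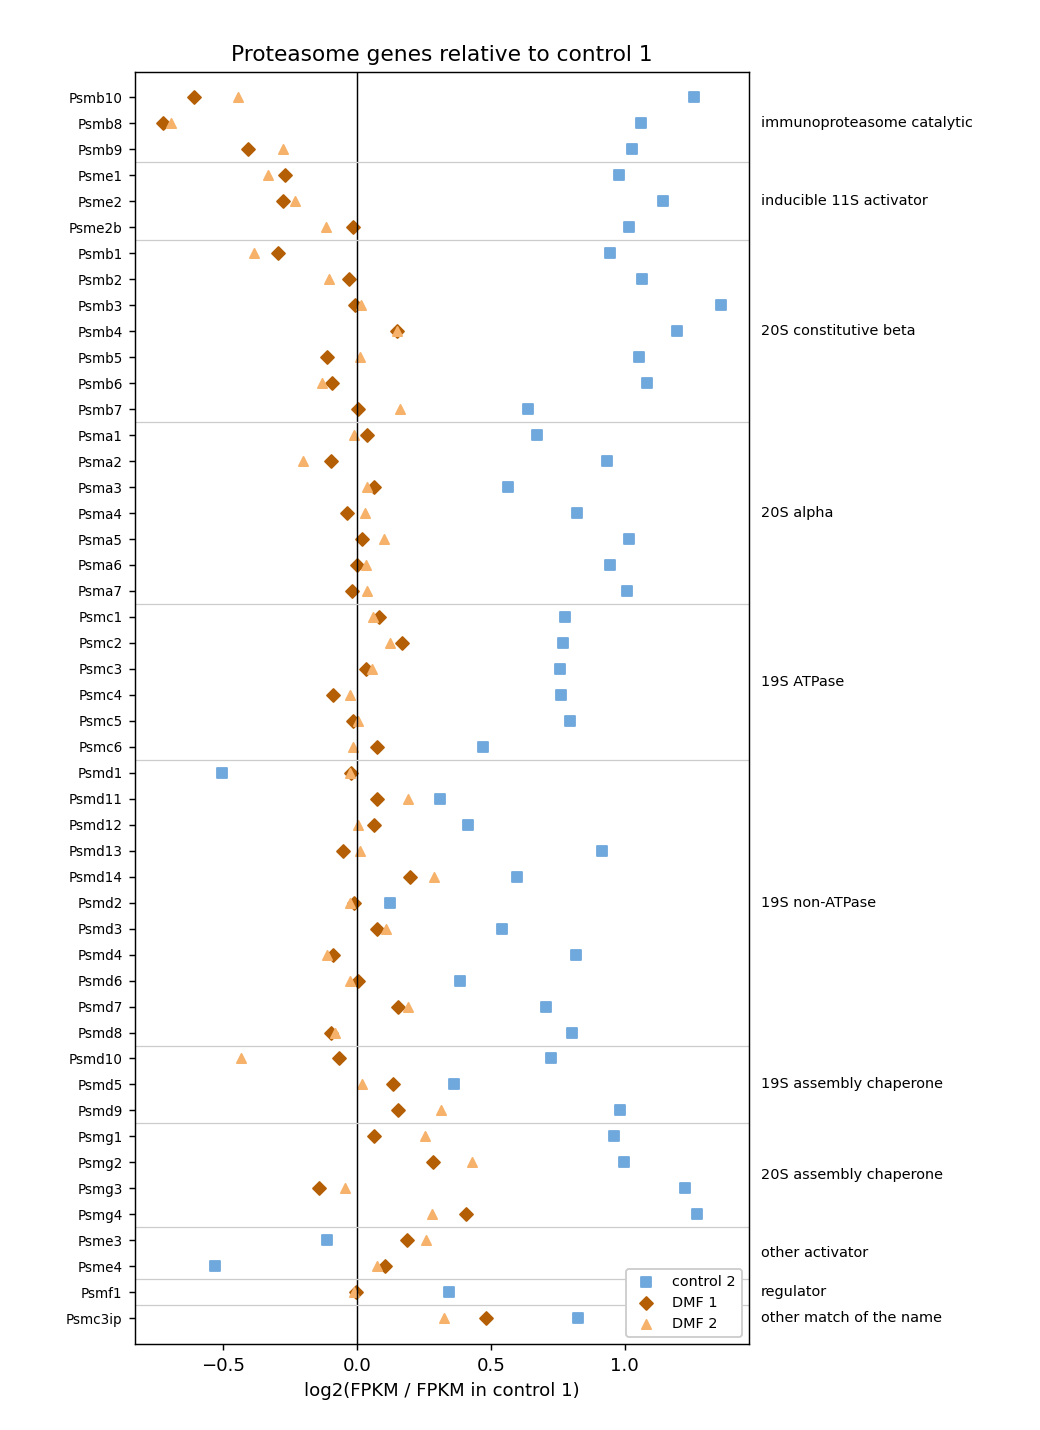
log2 ratio of FPKM to control replicate 1 (x axis) for the 48 tested proteasome genes (y axis, by role), with squares for control replicate 2, diamonds for DMF replicate 1 and triangles for DMF replicate 2. Control replicate 2 lies to the right of the zero line in 45 of 48 genes, and both DMF libraries lie to the left of it in the 5 inducible genes at the top.

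Psmb8 encodes beta5i, the chymotrypsin-like subunit of the immunoproteasome. It was at 53.1 FPKM in control replicate 1, 111 FPKM in control replicate 2, 32.2 FPKM in DMF replicate 1 and 32.9 FPKM in DMF replicate 2. The DMF libraries were nearly equal and both below the lower control. The group means were 81.9 ± 40.7 and 32.5 ± 0.476 FPKM (SD, n = 2), a ratio of 2.52 between control and DMF, and the log2 difference was -1.21 ± 0.40 (SE, limma adjusted p = 0.501). Without control replicate 2 that difference was -0.69, and without control replicate 1 it was -1.74. With 1 control left, the spread in the fit comes from the DMF libraries alone, so no p is given for these. Psmb8 lies on GRCm38 chromosome 17, from 34197721 to 34201454, on the plus strand.

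Psmb10 encodes beta2i, the trypsin-like inducible subunit. Its level was 41.6 and 99.6 FPKM in the control libraries and 27.3 and 30.6 FPKM in the DMF libraries, so the groups did not overlap, though the controls differed from each other by a factor of 2.39. The log2 difference was -1.13 ± 0.46 (SE, n = 2 per group, limma adjusted p = 0.544). Psmb9 encodes beta1i, which takes the place of Psmb6. It was the least abundant of the 3, at 18.6 and 37.8 FPKM in the controls and 14.01 and 15.3 FPKM with DMF, again without overlap, and its log2 difference was -0.82 ± 0.37 (limma adjusted p = 0.554).

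The inducible activator has 2 genes in the set. Psme1, which encodes the alpha subunit PA28alpha, was at 99.8 and 197 FPKM in the controls and 82.9 and 79.3 FPKM with DMF. Psme2, which encodes PA28beta, was at 60.6 and 134 FPKM in the controls and 50.1 and 51.6 FPKM with DMF. The DMF libraries were below both controls for either gene, and the DMF mean was 0.813 of control replicate 1 for Psme1 and 0.84 for Psme2, against 0.612 for Psmb8, 0.696 for Psmb10 and 0.79 for Psmb9. Their log2 differences were -0.78 ± 0.39 and -0.81 ± 0.42 (SE, limma adjusted p = 0.561 for each). The ratio of Psme1 to Psme2 within a library, 1.65 and 1.47 in the controls and 1.65 and 1.54 with DMF, overlapped between the groups. The 2 genes lie 5911 bp apart on opposite strands of chromosome 14. Psme1 overlaps another protein-coding gene on the opposite strand, which had 99 and 158 reads in the controls and 84 and 80 with DMF.

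Psme2b is an intronless gene that the table lists as protein coding. Its annotated transcript matched a Psme2 transcript at 789 of 794 aligned positions (99.4%), so a read of either gene could have been given to the other, and both levels are uncertain. Psme2b stood at 46.9 and 94.8 FPKM in the controls and 46.4 and 43.3 FPKM with DMF, just below the lower control.

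The subunits that the inducible ones replace had levels closer to control replicate 1. Psmb5, the constitutive chymotrypsin-like subunit, was at 147 and 305 FPKM in the controls and at 136 and 148 FPKM with DMF, and the groups overlapped. Psmb6, the constitutive caspase-like subunit, was at 72.9 and 155 FPKM in the controls and 68.4 and 66.7 FPKM with DMF, a little below the lower control. Psmb7, the constitutive trypsin-like subunit, was at 31.3 and 48.7 FPKM in the controls and 31.4 and 34.9 FPKM with DMF, inside the range of the controls. The limma adjusted p was 0.574, 0.561 and 0.676 for Psmb5, Psmb6 and Psmb7, with log2 differences of -0.57 ± 0.42, -0.65 ± 0.41 and -0.23 ± 0.28 (SE).

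**Figure D2:**
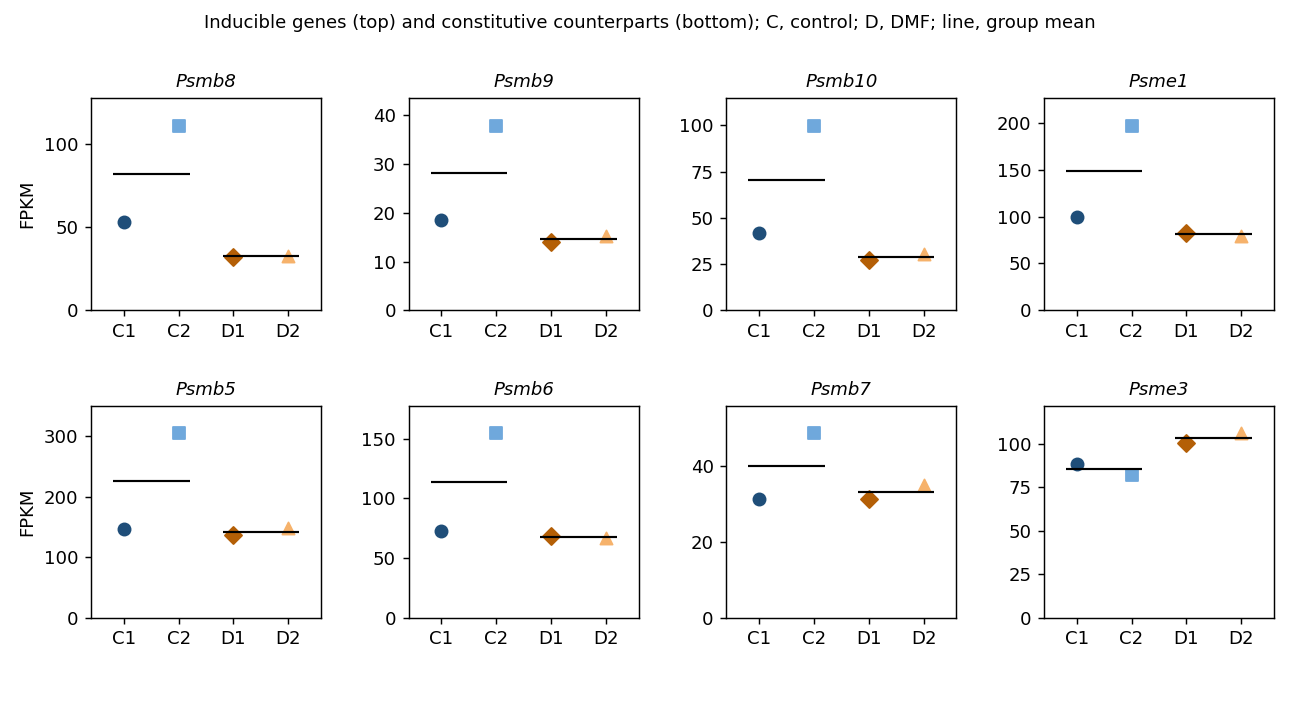
FPKM (y axis, from 0) of 4 inducible genes in the top row and 4 constitutive genes in the bottom row, in control replicates 1 and 2 (C1, C2) and DMF replicates 1 and 2 (D1, D2), with a line at each group mean. Psmb8 shows C1 at 53.1 and both DMF points near 32.5, while Psmb5 shows C1 at 147 between DMF points of 136 and 148.

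Because each inducible subunit takes the seat of 1 constitutive subunit, the 2 were set against each other within each library, where a shift common to both cancels. The FPKM ratio of Psmb8 to Psmb5 was 0.361 in control replicate 1 and 0.363 in control replicate 2, and 0.237 and 0.221 in DMF replicates 1 and 2. The controls, which differed by a factor of 2.08 in Psmb8 itself, were almost equal in this ratio. On the log2 scale the ratio differed by -0.66 between DMF and control, with SDs of 0.005 and 0.07 within the groups (n = 2 each). The control SD was below the counting error, which was 1.28% to 3.43% for an inducible gene in a library. It therefore understates the spread between controls. As a share of Psmb8 and Psmb5 together, Psmb8 made up 26.5% and 26.6% in the controls and 19.1% and 18.1% with DMF.

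The ratio of Psmb10 to Psmb7 was 1.33 and 2.05 in the controls and 0.87 and 0.877 with DMF, a log2 difference of -0.92. Here the controls stood apart, and the log2 difference from control replicate 1 alone was -0.61, that from control replicate 2 alone -1.23. The ratio of Psmb9 to Psmb6 showed the least separation, at 0.255 and 0.245 in the controls and 0.205 and 0.23 with DMF. Its log2 difference was -0.20, with SDs of 0.04 and 0.12 within the groups (n = 2 each). In all 3 pairs both DMF libraries were below both controls. No background share was worked out for ratios of gene pairs, so this count cannot be set against one. The 26.8% for single tested genes belongs to another scale. An exact permutation test, two-sided, gave p = 0.333 for each pair and 0.333 after Benjamini-Hochberg adjustment over the 3, which is the smallest p that 2 libraries against 2 allow. The genes of a pair differ in length (2736 bp for Psmb8, 899 bp for Psmb5), and with the gene length trend of each library removed the 3 differences were -0.82, -0.40 and -0.67 for Psmb8, Psmb9 and Psmb10.

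**Figure D3:**
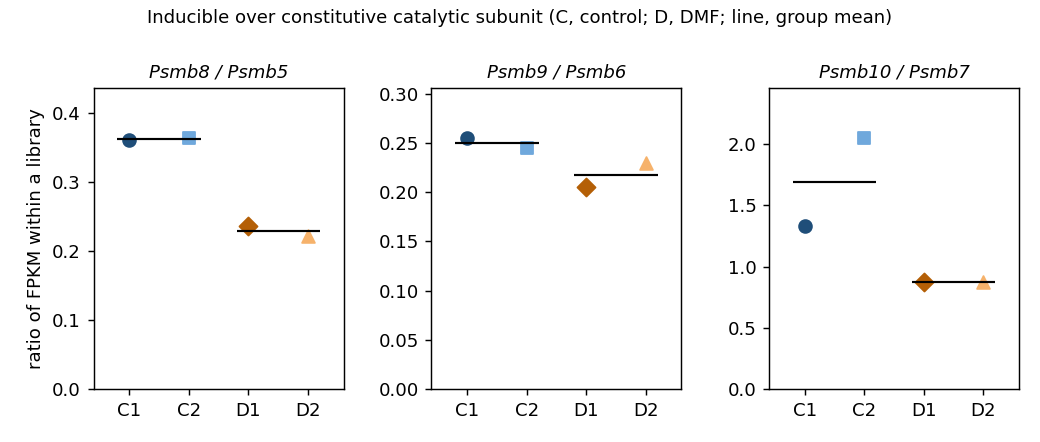
Ratio of the FPKM of each inducible catalytic subunit to that of the constitutive subunit it replaces (y axis, from 0) in control (C1, C2) and DMF (D1, D2) libraries, with a line at each group mean. The Psmb8 to Psmb5 points stand at 0.361 and 0.363 for the controls and 0.237 and 0.221 for DMF, and the Psmb10 to Psmb7 controls stand apart from each other.

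The region before the start site was read for these genes from the RefSeq promoter table (GRCm38.p6, 250 bases before to 50 after each start), which matched 42 of the 50 genes and has no entry for Psmb7. The sequences below, all 5′ to 3′ on the gene's strand, are shown because they carry the matches found in Psmb5 and Psmb8, the exchange pair with the most even ratio between controls, and in Psmb6 and Psme1. Capitals mark a match to 1 of 3 short patterns searched on both strands: the core of the antioxidant response element bound by Nrf2 and its relative Nrf1 (TGACNNNGC), a gamma-activated site, known from interferon-gamma responses (TTCNNNGAA), or a paired element of interferon regulatory factors (GAAA, any 2 bases, GAAA). The Psmb5 stretch is chr14:54618023-54618245 on the minus strand, the Psmb6 stretch chr11:70525107-70525356, the Psmb8 site chr17:34198088-34198117 and the Psme1 site chr14:55578493-55578522, the last 3 on the plus strand, and the Psmb8 and Psme1 sites lie in an annotated exon of some transcripts.
Psmb5: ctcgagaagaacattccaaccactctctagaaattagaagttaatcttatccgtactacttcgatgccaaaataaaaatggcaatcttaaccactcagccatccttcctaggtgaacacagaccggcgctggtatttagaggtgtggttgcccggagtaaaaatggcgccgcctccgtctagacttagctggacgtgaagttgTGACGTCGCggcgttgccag
Psmb6: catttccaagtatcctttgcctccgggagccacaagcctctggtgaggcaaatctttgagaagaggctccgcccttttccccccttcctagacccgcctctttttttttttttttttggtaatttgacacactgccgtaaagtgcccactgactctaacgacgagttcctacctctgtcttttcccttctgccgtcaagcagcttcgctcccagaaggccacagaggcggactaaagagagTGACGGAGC
Psmb8: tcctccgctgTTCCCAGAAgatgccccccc
Psme1: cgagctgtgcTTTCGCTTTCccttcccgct

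Psmb5 held the antioxidant core from 47 to 39 bases before its start and Psmb6 from 9 to 1 bases before. Psmb8 held the gamma-activated pattern from 97 to 89 bases before its start, and Psme1 the interferon factor pattern just after its start, read on the other strand as GAAAGCGAAA. The antioxidant core occurred in 6 of 37 constitutive genes and in 0 of 5 inducible genes, against 13.99% of all 27025 genes in the table. The gamma-activated pattern occurred in 1 of 5 inducible and 2 of 37 constitutive genes (9.55% of all genes), and the interferon factor pattern in 1 of 5 and 4 of 37 (3.99% of all genes). Psmb9, Psmb10 and Psme2 held none of the 3 in this window. These are matches of letters, not measured binding.

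Control replicate 2 carried more of nearly every proteasome transcript. The members took 0.629% of the reads in control replicate 1, 0.903% in control replicate 2, and 0.642% and 0.646% in the DMF libraries. FPKM in control replicate 2 exceeded that in control replicate 1 in 45 of the 48 tested members, with a median ratio of 1.76, and by more than 1.5 times in 36 of 48, where 25.4% of all tested genes did so. The exceptions were Psme3, Psme4 and Psmd1, which were lower in control replicate 2. Within the family the inducible set took 10.03% and 12.4% of the members' reads in the controls and 7.61% and 7.67% in the DMF libraries, so the groups did not overlap in this share.

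The excess in control replicate 2 was smaller in longer genes. Across the 48 members the log2 difference between the controls had a Pearson r of -0.629 with log2 gene length. The Spearman rho with gene length was -0.616. Across the 12166 tested genes these were -0.16 and -0.44. Genes of the same 2 libraries are not independent, so no p is given. Psmg4, the shortest tested member at 555 bp, was at 32.9 and 79.4 FPKM in the controls, and Psme4, the longest at 8382 bp, at 10.4 and 7.19 FPKM. The inducible genes, of 1705 to 3659 bp, had ratios of 1.97 to 2.39 between the controls.

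**Figure D4:**
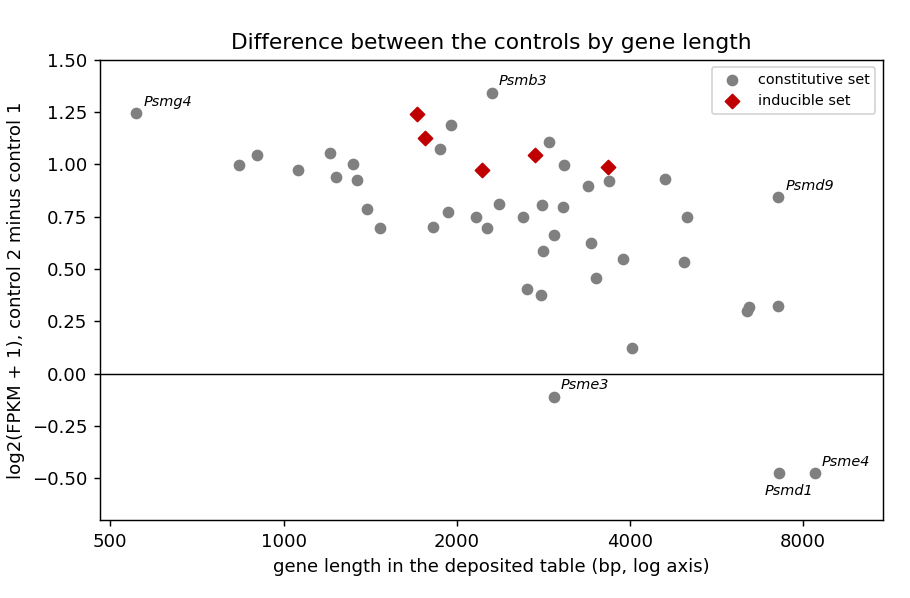
Difference between the 2 controls in log2(FPKM + 1) (y axis) against gene length in bp (x axis, log scale) for the 48 tested proteasome genes, with inducible genes as red diamonds. Most genes lie above 0, the 5 inducible genes lie near 1, and Psme3, Psme4 and Psmd1 lie below 0.

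The 7 alpha genes, Psma1 to Psma7, encode the outer rings of the core and form the gate. Their DMF mean was 0.903 to 1.04 of control replicate 1 and 0.472 to 0.70 of control replicate 2. Psma6, the most abundant of them, was at 158 and 304 FPKM in the controls and 158 and 161 FPKM with DMF, so both DMF libraries were close to control replicate 1. Psma8, which replaces Psma7 in the testis, did not pass the filter: the control libraries held 15 and 4 reads of it, the DMF libraries 1 and 7. Psmb11, the catalytic subunit of thymic epithelium, had 0 reads in every library, which allows up to 3 reads each.

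Of the 7 constitutive beta genes, Psmb1 to Psmb7, 3 were below both controls in both DMF libraries, against 26.8% of all tested genes. Psmb1, a structural subunit without catalytic activity, was at 43.9 and 84.4 FPKM in the controls and 35.8 and 33.6 FPKM with DMF. Its DMF mean was 0.79 of control replicate 1, the same fraction as for Psmb9, and its log2 difference was -0.80 ± 0.36 (SE, limma adjusted p = 0.553). Psmb4, another structural subunit, was at 119 and 272 FPKM in the controls and 132 FPKM in both DMF libraries, between the controls.

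Most genes of the 19S cap had DMF levels close to control replicate 1. The 6 ATPases that unfold substrates, Psmc1 to Psmc6, had a DMF mean of 0.962 to 1.11 of control replicate 1, with 1 of 6 below both controls (background 26.8%). The 11 non-ATPase subunits had 0.933 to 1.18, with 3 of 11 below both controls, a share close to that background. Psmd14, the deubiquitinase that strips ubiquitin chains from substrates, had the highest of these fractions and was at 36.8 and 55.6 FPKM in the controls and 42.2 and 44.9 FPKM with DMF. Psmd1, the large scaffold subunit of the base, was at 21.9 and 15.5 FPKM in the controls and 21.6 FPKM in both DMF libraries. Among the 3 cap assembly chaperones, Psmd5, Psmd9 and Psmd10, 1 was below both controls (background 26.8%).

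The core assembly chaperones Psmg1 to Psmg4 had a DMF mean of 0.939 to 1.28 of control replicate 1, with 1 of 4 below both controls (background 26.8%). Psmg2 was at 29.9 and 59.8 FPKM in the controls and 36.5 and 40.3 FPKM with DMF, and Psmg4 at 43.7 and 40.05 FPKM with DMF, both between their controls. Psmf1, which encodes the proteasome-binding protein PI31, was at 10.12 and 12.9 FPKM in the controls and 10.09 and 10.04 FPKM with DMF. Psmc3ip fits the name rule but encodes a partner protein known from meiotic recombination, and it stood at 4.34 and 7.70 FPKM in the controls and 6.07 and 5.45 FPKM with DMF.

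The 2 activators outside the inducible ring were the members that lay above both controls, 2 of 48 tested, where 26.4% of all tested genes did. Psme3, which encodes the nuclear activator PA28gamma, was at 88.4 and 81.9 FPKM in the controls and 101 and 106 FPKM with DMF, a log2 difference of 0.28 ± 0.21 (SE, limma adjusted p = 0.577). Psme4, which encodes the activator PA200, was at 10.4 and 7.19 FPKM in the controls and 11.2 and 10.9 FPKM with DMF, a log2 difference of 0.32 ± 0.23 (limma adjusted p = 0.57). Without control replicate 2 the log2 differences were 0.22 for Psme3 and 0.082 for Psme4. With the length trend removed they were 0.41 and 0.071. Psme3 and its inducible relatives thus lay on opposite sides of the controls, and the ratio of Psme1 to Psme3 was 1.13 and 2.40 in the controls and 0.824 and 0.749 with DMF.

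Levels were also set against the geometric mean of the 7 alpha genes in the same library, a scale chosen after the data were seen, in which a shift of the whole core cancels. All 5 inducible genes were below both controls on this scale, where 12.3% of all tested genes were, and so were 8 of the 43 constitutive genes. Above both controls were 15 of 43 constitutive genes and 0 of 5 inducible genes, where 39.9% of all tested genes were. The differences were -0.81 for Psmb8, -0.73 for Psmb10, -0.43 for Psmb9, -0.40 for Psme2 and -0.36 for Psme1 on the log2 scale, and -0.39 for the constitutive gene Psmb1, between Psme2 and Psme1. The median of the 43 constitutive genes was 0.105 and that of all tested genes 0.404, since the alpha genes were themselves high in control replicate 2.

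**Figure D5:**
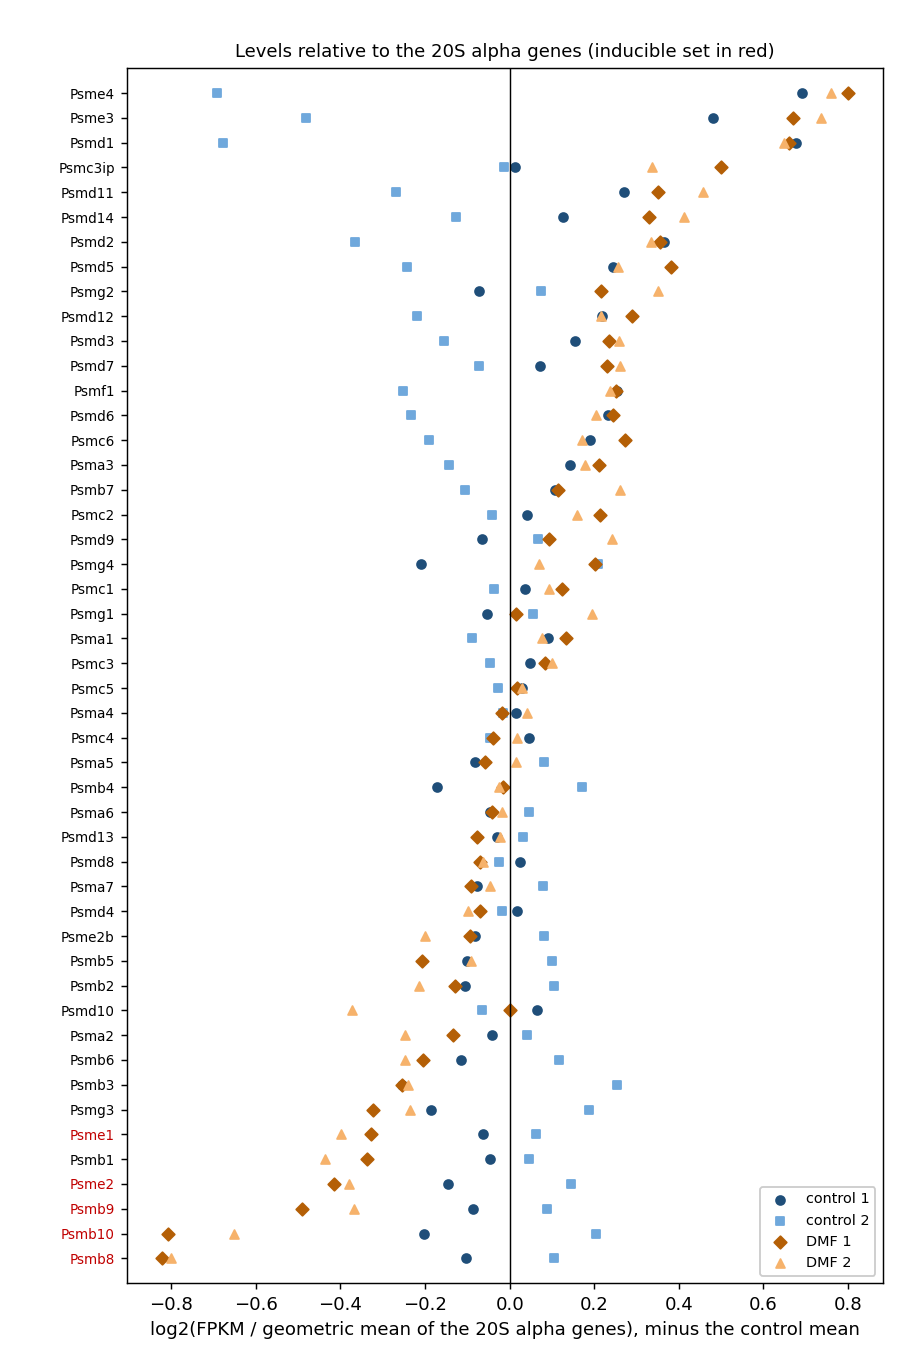
log2 ratio of each of the 48 tested proteasome genes to the geometric mean of the 7 alpha genes in the same library, minus the control mean (x axis), with genes ordered by the DMF difference (y axis, inducible genes in red) and 1 marker shape per library. Psmb8 and Psmb10 are the 2 lowest genes, at -0.81 and -0.73, and Psme3 and Psme4 have the 2 highest differences.

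Without control replicate 2, limma called 1 of 5 inducible genes, Psmb8, as lower and 0 of 43 constitutive genes, where 5.51% of all tested genes were called lower and 2.77% higher. Without control replicate 1 it called 5 of 5 inducible genes lower, and 38 of 43 constitutive genes lower and 3 higher, where 33.4% of all tested genes were called lower and 27.6% higher. No member was called without DMF replicate 1 (background 0.0247% higher and 0.0411% lower), without DMF replicate 2 (0.0164% and 0.0329%) or in a fit that blocked on replicate number (1.67% and 2.87%). In each fit with a library left out, the spread came only from the group that kept both libraries. The calls from those fits therefore cannot measure a difference due to DMF. They also cannot separate the inducible from the constitutive set, and no conclusion is drawn from them. Each inducible gene had 852 to 6052 reads per library, a counting error of 1.28% to 3.43%.

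Genes linked to the immunoproteasome through interferon also lay mostly below the controls. Of 16 genes for antigen processing and interferon signalling, 12 had both DMF libraries below both controls, as had 26.8% of all tested genes, and 1, Jak2, had both above (background 26.4%). The list's median log2 difference was -0.49, 3 genes were lower at an unadjusted limma p under 0.05 (background 6.31%), and 0 passed the adjusted test. Tap1, the peptide transporter gene that overlaps Psmb9 by 212 bp on the opposite strand, was at 56.1 and 65.3 FPKM in the controls and 40.9 and 45.1 FPKM with DMF, and without knowing whether the counting used strand, reads in the overlap cannot be told apart. Tap2, the other transporter subunit, was at 48.4 and 68.7 FPKM and at 42.3 and 39.1 FPKM. Ifngr1, which encodes the ligand-binding chain of the interferon-gamma receptor, was at 20.3 and 24.7 FPKM in the controls and 7.504 and 5.29 FPKM with DMF, the smallest limma adjusted p of the list (0.201).

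Other genes of that list mostly lay on the same side. Irf1, known to activate Psmb9 and Tap1, was at 18.02 and 23.6 FPKM in the controls and 14.9 and 14.8 FPKM with DMF. Irf9 was at 15.7 and 17.4 FPKM and at 11.4 and 10.4 FPKM, and Tapbp, the tapasin gene, at 90.7 and 126 FPKM and at 69.0 and 66.5 FPKM. B2m, the light chain of MHC class I, was at 1090 and 1861 FPKM in the controls and 687 and 690 FPKM with DMF. Nlrc5, the class I transactivator, was 1 of 3 list genes whose groups overlapped, at 25.1 and 10.8 FPKM and at 15.8 and 15.5 FPKM. Of the 16 genes, 3 had a positive log2 difference. B cells, whose markers summed higher in the DMF libraries, and CD8 T cells, whose markers summed lower, also express immunoproteasome genes.

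Of 9 tested regulators of proteasome genes, 4 were above both controls (Nfe2l1, Ddi2, Mafg and Mafk) and 2 below (Keap1 and Ngly1), of which Mafk and Ngly1 were named after their values were seen. The background was 26.4% above and 26.8% below, so the share below was near it. Nfe2l3 did not pass the filter. Nfe2l1, which encodes Nrf1, the factor that raises proteasome genes when proteasome activity falls, was at 37.98 and 29.9 FPKM in the controls and 40.9 and 42.6 FPKM with DMF (limma adjusted p = 0.567). Ddi2, the protease that activates Nrf1, was at 8.46 and 4.09 FPKM and at 9.09 and 8.91 FPKM. Nfe2l2, which encodes Nrf2, the factor named in the series title, was at 12.9 and 11.97 FPKM and at 12.8 and 12.02 FPKM. RNA levels do not measure the activity of these proteins.

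Of 16 tested partners of the proteasome outside the name rule, 8 were above both controls (background 26.4%) and 1 below (26.8%), with a median log2 difference of 0.19. The 1 below was Sem1, a small lid subunit, at 27.5 and 72.1 FPKM in the controls and 23.8 and 25.4 FPKM with DMF. Pomp, the core maturation factor, was at 28.7 and 66.5 FPKM in the controls and 32.5 and 32.7 FPKM with DMF, and Adrm1, a ubiquitin receptor of the cap, at 29.8 and 51.2 FPKM and at 30.2 and 34.3 FPKM, both between their controls. Among those above, Zfand5, a proteasome-stimulating zinc finger protein, was at 11.02 and 12.3 FPKM and at 15.9 and 14.8 FPKM, and Zfand2a, a stress-induced partner of the cap, at 7.004 and 6.72 FPKM and at 8.77 and 9.10 FPKM. Usp14, a deubiquitinase on the cap, was at 10.6 and 12.2 FPKM and at 14.4 and 14.3 FPKM.

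Of 6 genes that supply ubiquitin, 1 was above both controls (background 26.4%) and 1 below (26.8%). Uba6, an alternative ubiquitin-activating enzyme, was at 5.21 and 2.72 FPKM in the controls and 7.34 and 6.505 FPKM with DMF. Ubb, a polyubiquitin gene, was at 481 and 959 FPKM in the controls and 448 and 441 FPKM with DMF. Here too control replicate 2 held the high level.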

How the data were processed

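The members and gene lists were chosen with earlier results of these data known. The authors deposited 1 table of FPKM with gene names, coordinates and gene length, per the file headers. The submitters' processing notes name edgeR, without a role, and the build mm8, while 98.3% of the gene identifiers shared with GENCODE M21 (GRCm38), and 96% of the members, have its coordinates, so positions are given as GRCm38. The aligner and the counter: not given in the sources used here. Gene length was used as deposited by the authors. FPKM times length was a whole multiple of 1 step per library for 100% of values, within 0.01 of a read, which gave reads per gene.

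The test was limma 3.58.1 (eBayes with a trend) run in R 4.3.3, two-sided, on log2(FPKM + 1) of genes averaging 1 FPKM or more. P-values were adjusted by Benjamini-Hochberg over all of them (threshold 0.05). The fit was checked on reads simulated from a profile shared by all libraries, apart from changes put in. Those reads lacked the difference between the controls and its length trend, so the check does not show how the test behaves here. The log2(FPKM + 1) scale understates changes of low genes. Ratios of subunits used FPKM without a pseudocount. Any member could be named. Genes outside the family were named from a fixed list of 10 or as the up to 4 with the smallest p of their list; B2m and Jak2 were chosen after their values were seen, and 1 gene of the fixed list is not reported here. Alternatives tried: a pseudocount of 0.1 or 0.5, a filter at 5 FPKM or none, trimmed-mean scaling, quantile normalization, eBayes without a trend, the replicate number as a block, removal of a length trend (loess, span 0.3), voom, and each library left out. Gene lengths are those of whole gene models, which limits comparison of levels between genes.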

Additional observations from a re-analysis of the deposited data

How the results depend on the processing

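The 5 inducible genes were below both controls under trimmed-mean scaling, quantile normalization, removal of the length trend and voom. The other alternatives could not change this, since they keep each gene's order of libraries or only take a library away. The median log2 difference of the 5 genes ran from -1.38 to -0.32 with a library left out. The constitutive median ran from -0.70 to 0.017 with a library left out, so its direction rested on control replicate 2; without Psmc3ip, Psme2b and the 2 untested members, a choice made after seeing the data, it was -0.31. The constitutive genes above both controls numbered 2, and 9 under quantile normalization, 5 with voom and 2 to 21 with a library left out. Those below both numbered 12, and 6, 6 and 13 to 40 in the same order. With a library left out the criterion itself was easier to meet. The 21 above (without control replicate 2) and the 40 below (without control replicate 1) were counted against the 1 control that remained. No share over all tested genes was worked out for these alternatives, so their counts have no background and do not show that the members were unstable. limma called 0 genes over all, and 1034 with no filter, where most variances were 0 and the fit is unreliable, and 6 to 7420 with a library left out, where the lone library is assumed to vary like the other group. With no filter Psmb8 (adjusted p = 0.0163) and Psmb10 (0.0321) passed. With the replicate block limma called 552 genes and no member; the labels do not say that a number marks a shared culture, and deviations of same-numbered libraries had a correlation of -0.0233 over all tested genes and 0.119 over the members. Pairing and trimmed-mean scaling cannot change the difference in a ratio within a library, so the -0.66 of Psmb8 to Psmb5 stayed by construction. Voom and the pseudocounts could hardly change it, and leaving out a library could not reverse ratios whose groups did not overlap. All 3 ratios kept their direction under quantile normalization and removal of the length trend. The cause was not tested for these shifts.

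Some single genes changed direction. With a library left out, Psmb7 ran from -0.54 to 0.080, Psmg2 from -0.63 to 0.35, Psmd1 from -0.021 to 0.46, Nlrc5 from -0.65 to 0.49, Nfe2l2 from -0.059 to 0.045, Pomp from -1.01 to 0.18, Adrm1 from -0.66 to 0.11, Psmd14 from -0.35 to 0.24, Psmb4 from -1.04 to 0.15, Psma6 from -0.92 to 0.017, Psmg4 from -0.91 to 0.34 and Psmc3ip from -0.37 to 0.34. Under quantile normalization Psmg2 was 0.12, Nfe2l2 0.026, Ubb 0.046, Psmd14 0.23, Psmb4 0.020, Psma6 0.067 and Psmg4 0.0099. With voom Psmg2 was 0.026, Nlrc5 0.090, Nfe2l2 0.16, Psmd14 0.11 and Psmc3ip 0.16. With the length trend removed Psmg2 was 0.21, Nfe2l2 0.033, Psmd14 0.096 and Psmc3ip 0.28. With trimmed-mean scaling Nfe2l2 was 0.015 and Psmc3ip 0.0077.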
